A study of Mus musculus with 4 samples.

Results

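The cells described here were the C1q-negative myeloid cells of mouse small intestinal adenomas, 80 of 12349 cells in all (27, 7, 23 and 23 in ApcMin replicates 1 and 2 and VApcMinL replicates 1 and 2). A cell was a barcode with at least 1000 unique molecular identifiers (UMIs), at least 200 genes and at most 20% mitochondrial UMIs. Members were chosen by measured values: a member had at least 2 of the 5 myeloid genes Lyz2, Il1b, Clec4e, Csf3r and S100a9 detected together with Tyrobp, a signalling adaptor of myeloid cells. It also had to have 0 UMIs of C1qa, C1qb and C1qc, 0 of Cd3d, Cd3e and Cd3g, 0 of Cd79a, and less than 0.2% of its UMIs in Epcam, Krt8 and Krt19. The same rule with at least 1 C1q UMI gave 205 C1q-positive myeloid cells (90, 18, 53 and 44 in the same order of libraries). The 4 libraries of unsorted cells, each from several pooled adenomas, were made by single-cell RNA sequencing. All came from C57BL/6 mice aged 11 weeks that were labelled male and that carried the ApcMin/+ mutation. The 2 ApcMin libraries had intact Lef1 (Lef1 +/+). The 2 VApcMinL libraries had Lef1 fl/fl with Villin-Cre, a constitutive deletion driven in the intestinal epithelium, so the myeloid cells themselves lie outside the reach of the Cre. The first replicates used kit version 2 and the second replicates kit version 3, so each kit holds 1 library per group.

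Myeloid cells of the gut are replaced largely from blood monocytes, which mature in the tissue into macrophages that make the complement component C1q and clear microbes and dying cells. Cells that lack C1q include neutrophils, which arrive from blood and carry S100a8 and S100a9, monocytes that have not matured, and conventional dendritic cells, which take up antigen and present it to T cells on MHC class II. Interleukin 1β, encoded by Il1b, is a cytokine that such cells make when microbial or damage sensors signal through NF-kB, and Cxcl2 and Cxcl3 encode chemokines that attract neutrophils through Cxcr2.

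The libraries held 44660305 to 128247396 UMIs and 2145 to 4448 cells. The targeted gene Lef1 had 0 UMIs in the members and in the C1q-positive cells of all 4 libraries. In epithelial cells its level, given as UMIs of the gene scaled to the same total for each class of cells in each library (CPM), was 4.82 and 9.25 in the ApcMin libraries and 10.3 and 15.2 in the VApcMinL libraries (replicates 1 and 2), so it was higher in each library labelled as deleted, and a 3′ tag outside the deleted exons would not check the deletion. The genotype of a library is therefore given as labelled throughout. Xist, the RNA that silences 1 X chromosome in female cells, was detected in 20 of 23 and 6 of 23 members of the libraries labelled VApcMinL and in 0 of 27 and 0 of 7 members of those labelled ApcMin. Y-linked genes were detected in 14 of 27 and 4 of 7 ApcMin members and in 0 of 23 and 6 of 23 VApcMinL members. Over the summed members Xist was at least 58.4-fold higher in the VApcMinL libraries, taking 3 counts over the group as the floor. Barcodes with few UMIs, which hold free RNA, carried Xist in every library, at 198 and 130 CPM in the ApcMin and 626 and 213 CPM in the VApcMinL libraries (replicates 1 and 2), so the ApcMin libraries were not free of it. In the C1q-positive cells of VApcMinL replicate 1, Xist was detected in 50 of 53 cells and Y-linked genes in 0. In those of VApcMinL replicate 2, Xist was detected in 16 of 44 cells and Y-linked genes in 17. The RNA of VApcMinL replicate 1 thus goes against its label of male, and VApcMinL replicate 2 held both patterns. Genotype and this difference in sex-linked RNA cannot be told apart in any comparison of the groups below.

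Il1b and Lyz2, which encodes lysozyme, carried the rule. Il1b was detected in 77 of 80 members and Lyz2 in 72, both were detected in 69, and in 42 members they were the only 2 of the 5 genes. Clec4e, the receptor Mincle for mycobacterial glycolipids and dead cells, was detected in 32 members, Csf3r, the receptor for the neutrophil growth factor G-CSF, in 13, and S100a9 in 10. The label of inflammatory myeloid cells thus rested on Il1b. Of the neutrophil list, the granulocyte genes Ly6g, Ngp and Camp were at 0 UMIs. Its other genes outside the rule were detected in part of the 80 members: Il1r2 in 38, Trem1 in 24, Hdc in 15, S100a8 in 13 and G0s2 in 12. Cxcr2 was detected in 7, Mmp9 and Stfa2l1 in 6 each, Retnlg in 5 and Mmp8 in 3. Il1b was detected in 85.7% to 100% of the members of a library (median 3427 to 7399 UMIs per cell) and in 1.01% to 5.10% of epithelial cells (median 13565 to 27440.5 UMIs). The barcodes with free RNA carried 12.7 to 97.4 CPM of Il1b beside 1856 to 9473 CPM in the members. S100a9 was detected in 3.70% to 30.4% of members of a library and 0.160% to 0.890% of epithelial cells. These detection rates describe what the rule selected and carry no test.

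The edges of the rule were uneven. Of the members, 47 had exactly 2 of the 5 genes, 25 had 3 and 8 had at least 4, while 40 cells with 1 of the 5 genes met every other condition. The C1q condition split the cells widely: 10 cells had 1 C1q UMI, 3 had 2 and 192 had at least 3. An epithelial share between 0.1% and 0.2% was found in 5 members, 5 cells beyond the limit fell between 0.2% and 0.4%, 4 members had 1 Tyrobp UMI, and 1 cell failed for lack of Tyrobp alone. No member barcode was shared between libraries, among 18 cell barcodes shared by the kit 2 libraries and 1 shared by ApcMin replicate 1 and VApcMinL replicate 2.

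C1q-negative cells were under 1% of the cells of each library, and no difference between the groups was detectable. They made up 0.965% (95% exact binomial interval 0.637% to 1.40%) and 0.326% (0.131% to 0.671%) of the cells in ApcMin replicates 1 and 2, and 0.777% (0.493% to 1.16%) and 0.517% (0.328% to 0.775%) in VApcMinL replicates 1 and 2. The intervals cover counting error only. The groups overlapped, with means of 0.646% ± 0.452 (SD, n = 2) and 0.647% ± 0.184 (SD, n = 2), and the difference went down in the kit 2 pair and up in the kit 3 pair (p = 1, two-sided exact permutation test over libraries). Among gated myeloid cells the C1q-negative share was 23.1% and 28% in the ApcMin libraries and 30.3% and 34.3% in the VApcMinL libraries. Both VApcMinL libraries were above both ApcMin libraries, by 6.76 percentage points on average and by 7.19 and 6.33 points within the kit 2 and kit 3 pairs. This difference had p = 0.333 in the two-sided exact permutation test, which is the smallest p that 2 libraries against 2 allow, and the intervals of all 4 libraries overlapped. Within a kit pair it turned to -1.19 points in the kit 3 pair when cells were thinned to 1000 UMIs, and to -1.58 points in the kit 2 pair when 3 of the 5 genes were required. Within single libraries the spread from counting was wide, as shown by the interval of 12.1% to 49.4% for the 7 members of 25 gated cells in ApcMin replicate 2.

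**Figure D1:**
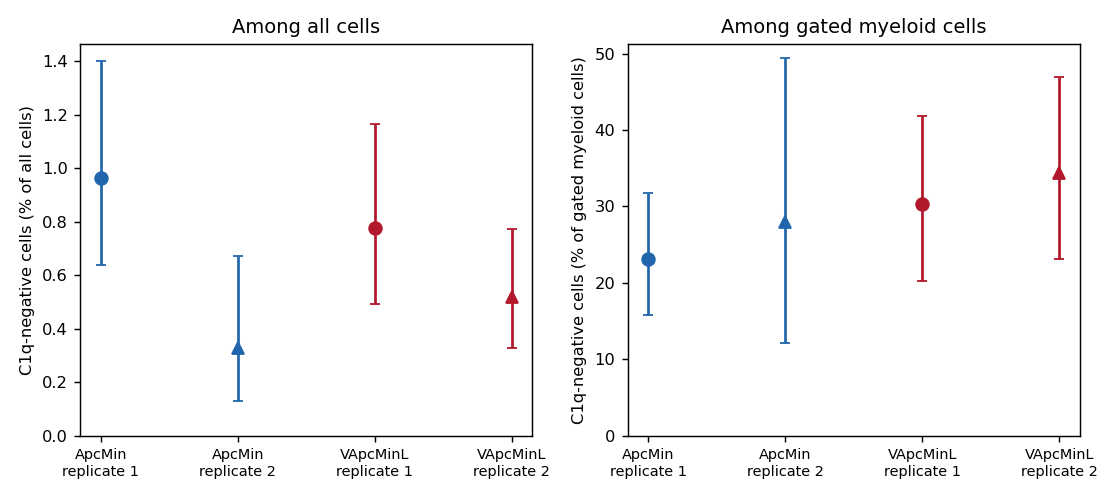
Percentage of C1q-negative cells among all cells (left) and among gated myeloid cells (right) in each library, with blue for ApcMin, red for VApcMinL, circles for kit 2 and triangles for kit 3. Points are the values of single libraries and bars their exact 95% binomial intervals, which overlap between the groups in both panels.

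Set beside the C1q-positive cells of the same libraries, the members had higher levels of several genes known from neutrophils and from dendritic cells. This contrast is the one that the rule made, so its values are given as a description with no test, as log2 ratios of CPM with 2 CPM added to each class. G0s2, a lipolysis inhibitor abundant in neutrophils, had the largest median log2 ratio, 7.57, and was at 253, 564, 612 and 1060 CPM in the members of ApcMin replicates 1 and 2 and VApcMinL replicates 1 and 2. Its RNA came from 1, 1, 4 and 6 members in that order, so the ratio describes a few cells and not the class. S100a9 (7.12) and S100a8 (6.58), the subunits of calprotectin, followed, of which S100a9 is itself a rule gene. The S100a8 level came from 1, 1, 2 and 9 cells. The S100a9 level came from 1 cell in each of 3 libraries and from 7 cells in VApcMinL replicate 2, where it reached 4689 CPM.

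Cd209a, a lectin of type 2 conventional dendritic cells and of some monocytes, was at 293, 389, 163 and 83.9 CPM in the members, in the same order of libraries, and at 0 to 4.83 CPM in the C1q-positive cells. Itgb7, the integrin chain that guides cells to the gut (median log2 ratio 4.56), the protease gene Napsa (3.48), the amidase gene Naaa (3.58) and H2-Oa, a modulator of MHC class II loading (3.16), also had positive ratios in all 4 libraries, as did Lsp1 (3.59), an actin-binding protein of leukocytes. Below the C1q-positive cells, beside the C1q genes that the rule fixed at 0, were Pf4 (median log2 ratio -8.46), Adamdec1 (-8.16), Mmp13 (-7.66), Ms4a7 (-7.51), Pla2g2d (-7.19), Ccl12 (-6.82) and Npl (-6.58), several of which are known from resident macrophages. Pf4 was at 143 CPM in the members of VApcMinL replicate 1 and at 0 in those of the other libraries. Among genes at 50 CPM or more in the higher class in every library, 412 were above and 445 below in all 4 libraries. The number of genes that met this level was not counted, so the 412 and 445 are given without a share. The 15 highest and 10 lowest of these genes had the same sign of the median when each cell was thinned to 1000 UMIs. They had the largest ratios and the thinned UMIs came from the same cells, so the sign could hardly change.

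**Figure D2:**
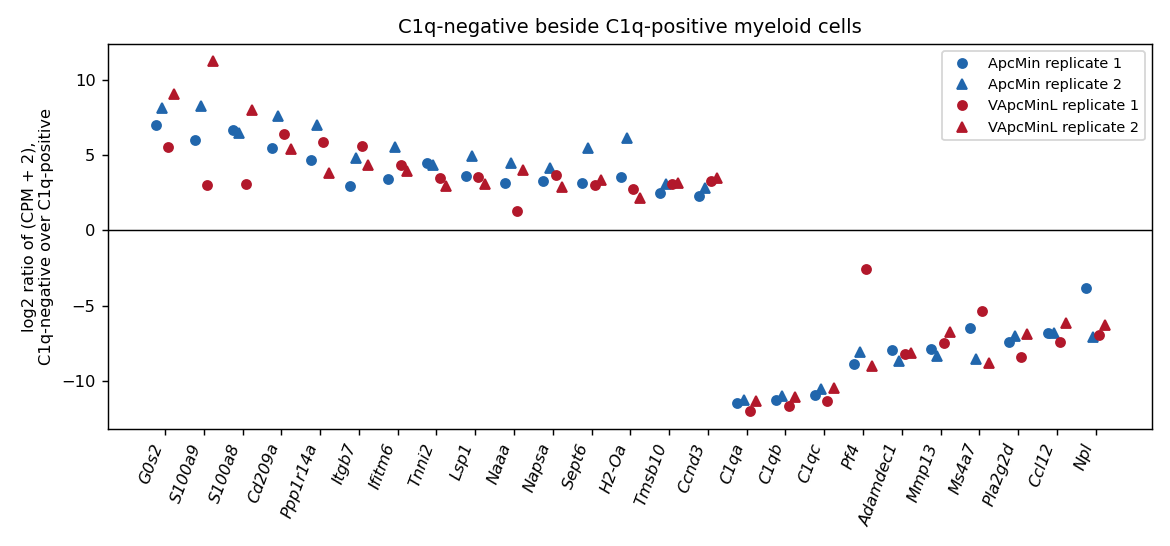
Log2 ratio of CPM (2 CPM added) in C1q-negative over C1q-positive myeloid cells for the 15 highest and 10 lowest genes, with 1 point per library. All points of a gene lie on the same side of 0, as the choice of genes required. The ratios of S100a9 span 3 to 11.2, and C1qa, C1qb and C1qc are low because the rule required it.

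Among themselves the members fell into 3 clusters of 26 to 27 cells, with cells of all 4 libraries in unequal shares. Cluster 1 held 33.3% and 28.6% of the ApcMin members and 34.8% and 30.4% of the VApcMinL members (replicates 1 and 2), cluster 2 held 44.4% and 57.1% against 26.1% and 21.7%, and cluster 3 held 22.2% and 14.3% against 39.1% and 47.8%. The shares of clusters 2 and 3 did not overlap between the groups; they carry no test, because the clusters rest on genes that differ between the groups. Cluster 2 was led by Apol7c, Serpinb6b, Xcr1, Itgae and Plet1, with Clec9a in its top 10, and 5 markers of type 1 conventional dendritic cells were among its 50 leading genes. It is called dendritic cell-like and not type 1, because genes of the type 2 list were detected in it as well. Xcr1, a chemokine receptor, and Clec9a, a receptor for dead cells, are hallmarks of type 1. They were detected in 6 and 10 of its 27 cells and in 0 cells of the other clusters, and the integrin gene Itgae in 15 of its cells. Of the type 2 list, Itgax was detected in 15 of its cells, Kmo in 14, Flt3 in 13, Cd209a and Mgl2 in 9 each, Clec10a in 7, Zbtb46 in 4 and Clec4a4 in 3. No gene of the type 2 list was among its 50 leading genes. In clusters 1 and 3 Itgax was detected in 9 and 11 cells, Cd209a in 6 and 2 and Clec10a in 3 and 1. Kmo, Flt3 and Mgl2 were detected in 4 cells each of cluster 1 and in 0 of cluster 3. Clec4a4 was detected in 2 and 0 cells of clusters 1 and 3, and Zbtb46 in 0 and 1. Cells of cluster 2 were deeper, with a median of 8319 UMIs against 4270 and 3670 in clusters 1 and 3.

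Cluster 3 was led by Inhba, the subunit of activin A, by Arg1, the arginine-degrading enzyme arginase 1, and by Il1a, Ccl24, Sdc4 and Cxcl3. Arg1 was detected in 16 of its 27 cells and in 1 cell of the rest, Vegfa, the vascular growth factor, in 20 against 5, and Clec4e in 23 against 9. No marker list had 3 genes among its leading 50, so it stays unnamed. Cluster 1 was led by Fbxo31, Trim30b, Csf3r and Cxcr2. Ccr2, the monocyte chemokine receptor, was detected in 14 of its 26 cells, Csf3r in 9 and Cxcr2, the receptor for Cxcl2 and Cxcl3, in 6. Neutrophil genes gave 3 of its 50 leading genes, but the macrophage genes Apoe and Trem2 and the monocyte gene Ccr2 were among them too, so this cluster also stays unnamed. Lyz2 was detected in 23, 24 and 25 cells of clusters 1, 2 and 3, and Il1b in 23, 27 and 27, so the rule's main genes were common to all clusters. These genes built the clusters and are a description. One member, in ApcMin replicate 2, held at least 4 of 7 mast cell genes. That cell lay in cluster 2, as 1 of 4 members of its library there. It gave that library a summed mast cell list of 12690 CPM against 28.2 to 86.1 CPM in the members of the other libraries.

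**Figure D3:**
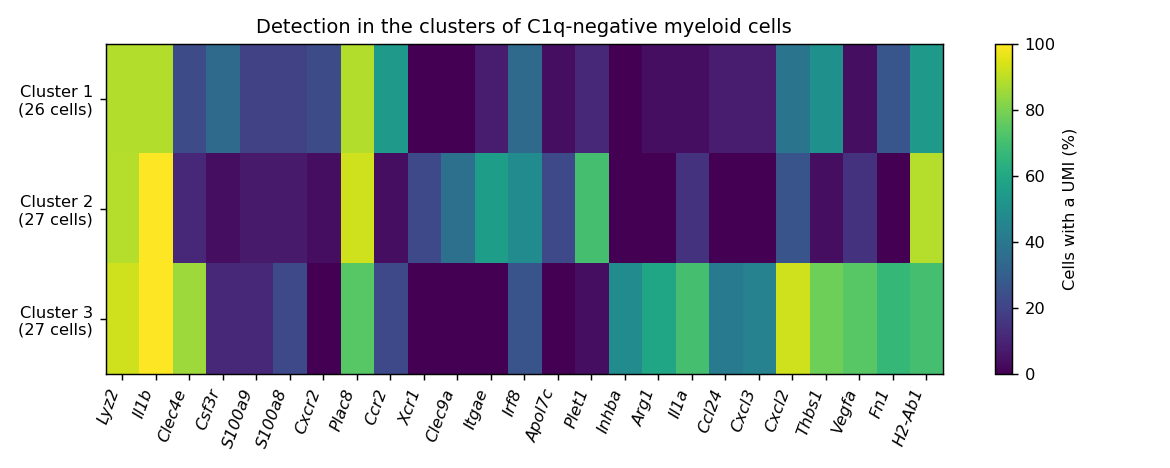
Percentage of cells with a UMI of each gene (colour, 0 to 100%) in the 3 clusters of C1q-negative cells, which hold 26, 27 and 27 cells. Lyz2 and Il1b are detected throughout, Xcr1 and Clec9a in cluster 2 only, and Inhba in cluster 3 only.

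The comparison of VApcMinL with ApcMin asks whether myeloid cells outside the reach of the Cre differ between adenomas of the 2 genotypes. UMIs were summed over the members of each library and 1449 genes were tested with edgeR, with the kit as a block. The calls included chemokines, interleukin 1 genes, Thbs1 and Osm among the rises, and 2 markers of type 1 dendritic cells, Irf8 and Itgae, among the falls. At a Benjamini-Hochberg adjusted p of 0.05, 46 genes rose (3.17% of the tested genes) and 6 fell (0.414%). Il1b and S100a9, which the rule used to choose the cells, are 2 of the 46 and are described without a test; without the rule genes 50 of 1441 were called (3.47%). The call depended on how the spread was estimated: with the kit left out of the model 0 genes were called, with a smallest adjusted p of 0.172, and DESeq2 with the same model called 5 (0.345%), namely Cxcl3, Thbs1, Il1b, Osm and Ifitm1. The sums cannot tell fewer cells of a type from less RNA per cell.

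The chemokine Cxcl2 showed one of the widest gaps. It was at 1707 and 301 CPM in ApcMin replicates 1 and 2 and at 7643 and 9295 CPM in VApcMinL replicates 1 and 2, a rise of 3.32 on the log2 scale (SE 0.30, adjusted p = 5.9e-25, edgeR). It was detected in 11 of 27 and 1 of 7 ApcMin members and in 15 of 23 members of each VApcMinL library, and the VApcMinL libraries stood above both ApcMin libraries. Under DESeq2 its adjusted p was 0.343.

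Cxcl3, which also lies on chromosome 5 and acts on the same receptor, rose from 186 and 100.3 CPM in the ApcMin libraries to 1818 and 839 CPM in the VApcMinL libraries (log2 change 3.14, SE 0.37, edgeR adjusted p = 8.8e-15; DESeq2 adjusted p = 0.00053). Its RNA came from 3, 1, 4 and 6 cells of ApcMin replicates 1 and 2 and VApcMinL replicates 1 and 2, so a few cells set each value. Ccl3 and Ccl4, chemokines for monocytes and lymphocytes, rose as well, with Ccl3 at 50.7 and 25.1 CPM in the ApcMin and 450 and 409 CPM in the VApcMinL libraries. The promoters of Cxcl2, Cxcl3 and of Nfkbia, the inhibitor of NF-kB that rose with them, are shown because all hold the NF-kB consensus. The sequences are the 250 bases before the start in RefSeq (GRCm38.p6), written 5′ to 3′ on the gene's strand, and capitals mark matches to the consensus on either strand, of which those of Cxcl2 and Cxcl3 are 2 overlapping matches.
Cxcl2 (chr5:90903649-90903898, + strand): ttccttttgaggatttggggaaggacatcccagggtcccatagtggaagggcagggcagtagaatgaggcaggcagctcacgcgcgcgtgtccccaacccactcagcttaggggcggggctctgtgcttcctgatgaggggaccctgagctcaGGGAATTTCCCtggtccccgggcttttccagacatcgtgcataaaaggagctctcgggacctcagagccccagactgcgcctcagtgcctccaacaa
Cxcl3 (chr5:90785851-90786100, + strand): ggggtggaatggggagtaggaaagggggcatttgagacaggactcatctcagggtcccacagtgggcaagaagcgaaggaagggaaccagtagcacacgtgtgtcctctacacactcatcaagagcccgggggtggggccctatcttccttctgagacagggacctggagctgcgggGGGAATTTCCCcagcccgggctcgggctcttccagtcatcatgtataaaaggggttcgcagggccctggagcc
Nfkbia (chr12:55492648-55492897, - strand): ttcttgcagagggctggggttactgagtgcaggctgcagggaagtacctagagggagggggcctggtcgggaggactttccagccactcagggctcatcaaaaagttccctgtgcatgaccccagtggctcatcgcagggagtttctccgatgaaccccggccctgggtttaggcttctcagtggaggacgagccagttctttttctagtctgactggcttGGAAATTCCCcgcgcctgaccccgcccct
The matches begin 97 and 96 bases before the start of Cxcl2, 73 and 72 before that of Cxcl3 and 29 before that of Nfkbia. Promoters were found for 35 of the 46 risen genes, and 7 of these (20%) held the consensus (Cxcl2, Cxcl3, Ftl1, Ier3, Nfkbia, Ramp3 and Sdc4), beside 5.39% of the tested genes with a promoter and 3.90% of all 32851 promoters. A match is a run of letters and not a measured site.

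Il1b itself was at 2399 and 1856 CPM in ApcMin replicates 1 and 2 and at 6065 and 9473 CPM in VApcMinL replicates 1 and 2. Both VApcMinL libraries were above both ApcMin libraries, with a fitted log2 difference of 1.79. Il1b is one of the genes by which members were chosen, so these values are a description with no test. It was detected in 27 of 27, 6 of 7, 22 of 23 and 22 of 23 members in the same order. These shares were largely set by the rule, since 42 of the 80 members qualified by Lyz2 and Il1b alone. The gene lies at chr2:129364570-129371139 on the minus strand (GRCm38, GENCODE M21).

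Other genes of the interleukin 1 axis were not used by the rule. Il1a, the second agonist of the receptor, rose by 2.54 and Il1rn, the secreted antagonist, by 2.25 on the log2 scale (SE 0.55 and 0.46, edgeR adjusted p = 0.00029 and 7.5e-05). Il1rn was at 141 and 75.2 CPM in the ApcMin and at 459 and 671 CPM in the VApcMinL libraries. Neither Il1a nor Il1rn passed under DESeq2 (adjusted p = 0.35 and 0.38). Il1a was detected in 9 and 1 members of ApcMin replicates 1 and 2 and in 7 of each VApcMinL library. For Il1rn these numbers were 4 and 1 in the ApcMin and 10 and 14 in the VApcMinL libraries. The decoy receptor Il1r2, at 327, 176, 383 and 587 CPM, did not pass (log2 change 0.87, edgeR adjusted p = 0.34). Of the 3 tested genes of the list that the rule did not use, 2 thus rose, with a median of 2.25 beside -0.01 over all genes tested.

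Among cytokines and growth factors 2 of 4 tested genes, Thbs1 and Osm, rose. Thbs1, the matrix protein thrombospondin 1, was at 84.5 and 313 CPM in the ApcMin and 1062 and 1406 CPM in the VApcMinL libraries (log2 change 2.82, SE 0.36, edgeR adjusted p = 2e-12). Osm, the cytokine oncostatin M, was at 118 and 50.2 CPM against 928 and 546 CPM (log2 change 3.06, SE 0.45, edgeR adjusted p = 2.7e-09). Both passed under DESeq2 as well, at adjusted p = 0.0072 and 0.02, but Thbs1 did not pass in edgeR without ApcMin replicate 1 (adjusted p = 0.10).

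Arg1 was at 141 and 0 CPM in ApcMin and 1416 and 923 CPM in VApcMinL replicates 1 and 2, Ccl24, an attractant of eosinophils, at 113 and 0 CPM against 1875 and 818 CPM, and Inhba at 11.3 and 12.5 CPM against 105 and 451 CPM. Their log2 changes were 4.04, 4.54 and 4.01 (edgeR adjusted p = 3.9e-19, 1.4e-23 and 5e-06). These were genes of few cells: Ccl24 was detected in 4 of 27, 0 of 7, 6 of 23 and 3 of 23 members of ApcMin replicates 1 and 2 and VApcMinL replicates 1 and 2, and 1 cell held from 41.8% to 75% of its UMIs in the libraries where it was detected. None of the 3 passed under DESeq2, where Arg1 had an adjusted p of 0.999. The protease inhibitor Slpi and the proteoglycan Sdc4 completed the 10 largest rises together with Xist, described above (log2 changes 3.08 and 2.97).

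**Figure D4:**
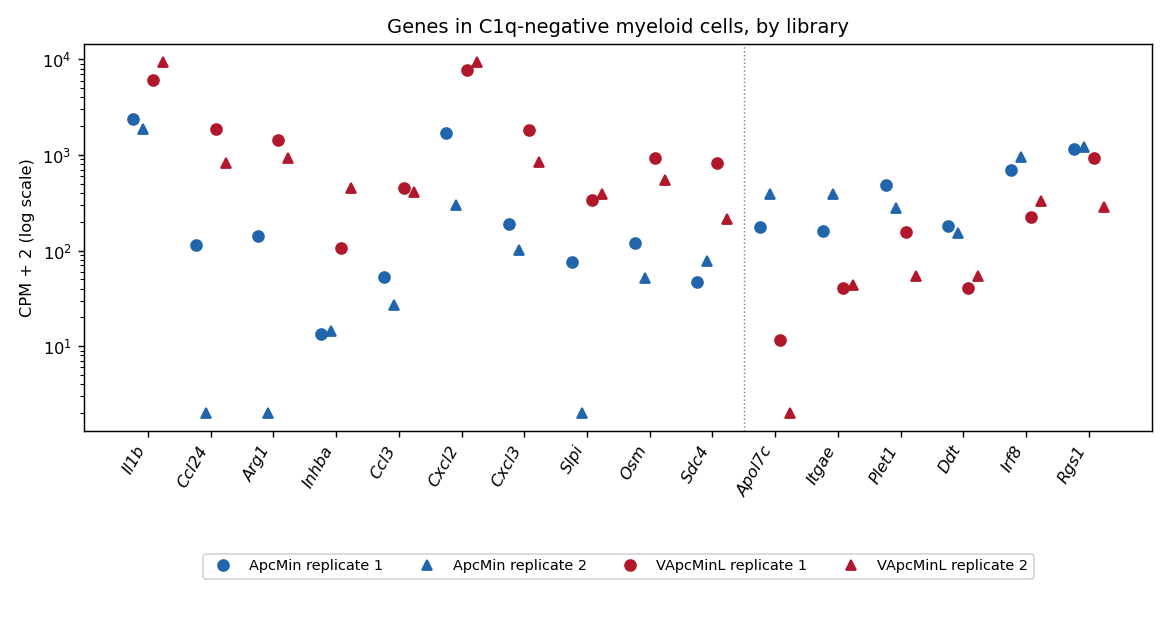
Level of 16 genes in C1q-negative cells as CPM + 2 on a log axis, 1 point per library (blue ApcMin, red VApcMinL; circles kit 2, triangles kit 3). Left of the dotted line are Il1b and 9 of the 10 largest rises, in which the VApcMinL points lie above the ApcMin points; right of it are the 6 falls, in which they lie below.

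The 6 genes that fell included 2 of the 5 tested markers of type 1 dendritic cells. Irf8, the transcription factor needed for type 1 dendritic cells, was at 687 and 940 CPM in ApcMin replicates 1 and 2 and at 220 and 325 CPM in VApcMinL replicates 1 and 2 (it fell by 1.63 on the log2 scale, SE 0.37, edgeR adjusted p = 0.00055). Itgae, which encodes the integrin CD103 of gut dendritic cells, was at 158 and 389 CPM against 38.3 and 42 CPM (it fell by 2.67, SE 0.61, edgeR adjusted p = 0.00072). Apol7c, an apolipoprotein L gene, was at 175 and 389 CPM against 9.57 and 0 CPM, and fell by 5.49.

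Plet1, Rgs1, a regulator of chemokine receptor signalling, and Ddt, a relative of the cytokine MIF, also fell, by 1.99, 1.18 and 1.91. No fallen gene passed under DESeq2. In ApcMin replicate 2 the Irf8 UMIs came from 1 of 7 members and the Apol7c UMIs from 3. With the top cell of each library left out the groups overlapped for Irf8 and Rgs1. Irf8 did not pass with any library left out (edgeR adjusted p from 0.059 to 0.48), nor did Ddt (0.29 to 0.79). Itgae passed only without ApcMin replicate 1, Rgs1 only without VApcMinL replicate 1, Plet1 only without VApcMinL replicate 1 or ApcMin replicate 2, and Apol7c passed except without ApcMin replicate 2 (adjusted p = 0.19). Of the 6 fallen genes 4 (66.7%) were among the 50 leading genes of the dendritic cell-like cluster 2 (8% of that list). Of the 46 risen genes 13 were among the 50 leading genes of cluster 3 (26% of that list, 28.3% of the risen genes). Among all tested genes 3.17% rose and 0.414% fell. The share of all tested genes that led a cluster was not counted. The clusters were built from the same cells and hold the libraries unequally, so these overlaps are a description and carry no test. As given above, the share of members in cluster 2 was lower and that in cluster 3 higher in the VApcMinL library of both kit pairs, and the part of this makeup in the differences was not tested.

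Of the 52 called genes, rule genes Il1b and S100a9 included, 49 kept 1 direction across the kit pairs. In 48 the CPM values did not overlap between the groups, beside 21.2% of all tested genes that did not overlap upward and 13% downward. The genes were called on these same 4 libraries, so such counts describe the calls and add no support. For 44 the groups still did not overlap with the top cell of each library left out. The 2 libraries against 2 and the 7 cells in ApcMin replicate 2 limit the precision: without that library 18 genes were called, 14 of them among the 52, and without VApcMinL replicate 2 the number was 25, of which 15 were among the 52. Requiring 3 of the 5 myeloid genes left 449 tested genes and called 0 (15 at an unadjusted p under 0.05, edgeR). Thinning each cell to 1000 UMIs left 349 and called 0 (29 at an unadjusted p under 0.05, edgeR). All 35 called genes still tested after thinning kept their direction, but the thinned UMIs are part of the same counts and add no separate support.

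Neutrophil genes did not move evenly. S100a9, a rule gene given here with no test, was at 434 and 602 CPM in ApcMin and 287 and 4689 CPM in VApcMinL replicates 1 and 2, so the groups overlapped. Within kit pairs the change was -0.57 for kit 2 and 2.93 for kit 3. S100a8, which the rule did not use, passed the test (log2 change 1.22, edgeR adjusted p = 0.041), with -0.87 and 3.48 in the kit pairs, and did not pass without ApcMin replicate 2 or VApcMinL replicate 2 (adjusted p = 0.71 and 0.99). Cells with both Csf3r and S100a8 or S100a9 numbered 1 of 27, 0 of 7, 0 of 23 and 4 of 23 after thinning each cell to 1000 UMIs, and 1, 1, 1 and 5 at their own depth (ApcMin replicates 1 and 2, VApcMinL replicates 1 and 2). It was the only call among the 4 tested neutrophil markers that the rule did not use. The share differed by 6.84 percentage points (p = 1, two-sided exact permutation test), and 0 of 7 and 0 of 23 allow shares up to 42.9% and 13% by the floor of 3 counts, or 41.0% and 14.8% by the exact interval. At a floor of 500 UMIs their unthinned numbers were 2, 1, 6 and 5, while a floor of 2000 UMIs left 0, 0, 1 and 1.

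Across the lists of pathways, cell types and sex-linked genes, 121 listed genes that the rule did not use were tested. Of these 23 rose, Xist among them, and 2 fell (20.7%, against 3.47% of all tested genes that the rule did not use). The lists were drawn up with earlier results of these data known. Of 9 tested chemokine genes 4 rose, Cxcl2, Cxcl3, Ccl3 and Ccl4, with a list median of 1.36 on the log2 scale, while Ccrl2, an atypical chemokine receptor listed with them, did not pass (203, 87.8, 258 and 598 CPM in ApcMin replicates 1 and 2 and VApcMinL replicates 1 and 2). Among microbe and damage sensors Clec4n, Cd14 and Fcer1g rose, 3 of 5 tested outside the rule, with a median of 1.34. Cd14, the co-receptor for bacterial lipopolysaccharide, was at 310 and 364 CPM in the ApcMin and 1052 and 1196 CPM in the VApcMinL libraries. Arg1 was the only call among 6 tested genes of the prostaglandin and suppressive list, and S100a8 the only one among 6 granule genes outside the rule.

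In the NF-kB list the feedback inhibitor Nfkbia and the stress gene Ier3 rose, 2 of 8 tested genes, and 7 of the 8 had a log2 change above 0. Cebpb, a transcription factor of inflammatory myeloid genes, rose by 1.27 while Irf8 fell, the only calls among 10 tested myeloid transcription factors. Among complement, scavenger and lipid genes, the complement receptor C5ar1, Apoe, and the ferritin chains Fth1 and Ftl1 rose, 4 of 10 tested. Apoe overlapped between the groups, at 1673 and 451 CPM in ApcMin and 3932 and 1605 CPM in VApcMinL replicates 1 and 2. In ApcMin replicate 2 it lay below the 829 CPM of the barcodes with free RNA. Its log2 change of 1.45 was 0.51 without VApcMinL replicate 1 and 0.62 without ApcMin replicate 2. Apoe and Csf1r, the receptor for the macrophage growth factor, were the 2 risen genes of 4 tested in the macrophage list. The C1q genes of that list were 0 by the rule. Fn1 was the only risen gene of 6 tested in the monocyte list. None of the called genes named in this paragraph passed under DESeq2.

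Several lists had no call. Of 8 tested genes of MHC class II presentation, 8 had a log2 change below 0 and 0 passed (edgeR), with a median of -0.44; Cd74, the invariant chain, was at 29440 and 16527 CPM in the ApcMin and 21304 and 13050 CPM in the VApcMinL libraries. The 14 tested immediate early and heat shock genes had a median of -0.43, with 13 below 0 and 0 calls. None of 6 tested hypoxia and glycolysis genes, 3 interferon response genes, 2 inflammasome genes and 4 chemokine receptor and homing genes passed, with medians of 0.78, 1.09, -0.20 and 0.47. Type 2 dendritic cell markers had a median of -0.19 with 0 of 4 called. The type 1 list, described above with its 2 calls, had a median of -1.50 with 5 of 5 tested genes below 0. Summed CPM of the type 1 list was 1295 and 2169 in the ApcMin and 459 and 787 in the VApcMinL members.

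Genes of cells other than myeloid cells were low but differed between libraries. Red blood cell genes summed to 653 CPM in ApcMin replicate 1 and to 0 to 19.1 CPM in the others, with all 4 listed genes detected. Jchain, a plasma cell gene, was at 546 CPM there and at 0 to 124 CPM elsewhere, and it was detected in 98.2% of that library's epithelial cells. Fibroblast markers summed to 0 to 12.5 CPM with 3 of 6 at 0 UMIs, and endothelial markers to 10.5 to 75.2 CPM with 2 of 5 at 0. The epithelial list summed to 724 to 1241 CPM, a sum that includes Epcam, Krt8 and Krt19, which the rule capped. Of its 3 tested genes that the rule did not use, 0 were called. The part of these RNAs in the genotype comparison was not tested.

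A test of the difference between the 2 classes asked whether the genotype change of the C1q-negative cells was also present in the C1q-positive cells of the same libraries. Of 3229 genes tested with edgeR, the change was more positive in the C1q-negative cells for 7 (0.217%) and more negative for 3 (0.0929%). For Cxcl2 the difference between the changes was 3.87 on the log2 scale (adjusted p = 0.00015, edgeR). In C1q-positive cells Cxcl2 was at 2303 and 853 CPM in ApcMin replicates 1 and 2 and at 757 and 1273 CPM in VApcMinL replicates 1 and 2, so those groups overlapped.

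Il1b, a rule gene in both classes, was among the 10 and is described without a test, with a difference of 1.92; without the rule genes 9 of 3218 were called (0.28%). Its level in C1q-positive cells was 2479 and 1918 CPM in the ApcMin and 1419 and 2615 CPM in the VApcMinL libraries. In the ApcMin libraries both classes thus held about the same Il1b, and in the VApcMinL libraries the C1q-negative cells held more. Ccl24 (4.73), Ccl3 (3.35), Thbs1 (3.03), Il1rn (2.65) and the interferon-induced membrane protein Ifitm1 (2.54) also had a more positive change in C1q-negative cells, at adjusted p from 0.01 to 0.048. Ifitm1 was detected in 37.3% to 80.5% of epithelial cells.

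Apol7c had a more negative change in the C1q-negative cells (-5.25, adjusted p = 0.01, edgeR). It was detected in 31.8% to 64.2% of the C1q-positive cells of a library, at 423 to 1319 CPM. The remaining 2 calls were the haemoglobin genes Hba-a1 and Hba-a2, whose UMIs in the C1q-positive cells of VApcMinL replicate 2 all came from 1 cell. Without the library as a block 0 genes passed (smallest adjusted p 0.924, 112 at an unadjusted p under 0.05), and DESeq2 called 9. Without ApcMin replicate 2, VApcMinL replicate 1 or VApcMinL replicate 2 the number was 33, 34 or 43. Arg1 and Cxcl3 rose in the C1q-negative cells, but for them the difference between classes did not pass (adjusted p = 0.31 and 0.73, edgeR).

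**Figure D5:**
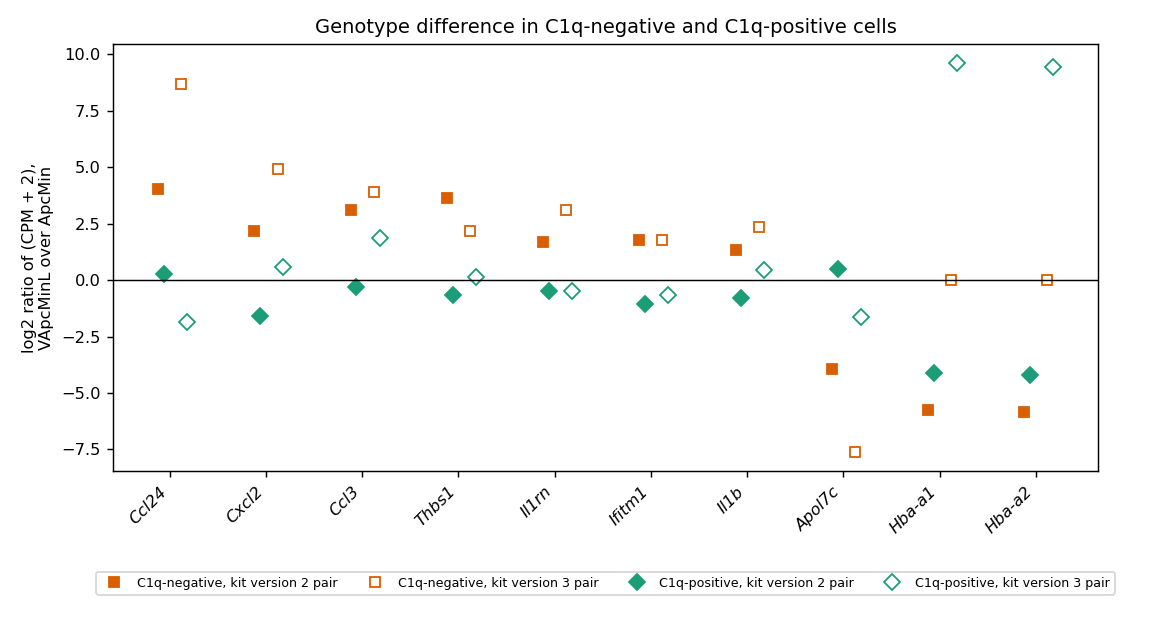
Log2 ratio of CPM (2 CPM added) in VApcMinL over ApcMin for the 10 genes whose genotype change differed between classes, in C1q-negative (orange squares) and C1q-positive cells (green diamonds), filled for the kit 2 pair and open for the kit 3 pair. For Ccl24 to Il1b both orange points lie above both green points; the open green points of Hba-a1 and Hba-a2 come from 1 cell.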

How the data were processed

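Single-cell RNA sequencing was done on 4 libraries of dissociated adenomas, 2 labelled ApcMin and 2 labelled VApcMinL. The authors deposited raw UMI counts per gene and barcode for all barcodes. Per the study's methods and the submitters' processing notes, the counts came from Cell Ranger 2.1.1 and the mm10 build. The headers of the kit 3 matrices name version 3.1.0. Genes with the same identifier in both gene tables (27514) were kept.

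The members and the gene lists were chosen with earlier results of these data known. Doublets were not removed, except as an alternative. Cells are not replicates, so their counts were added up within each library and class. Differences were tested by quasi-likelihood in edgeR 4.0.16 (R 4.3.3) with TMM scaling, a minimum count of 10 and Benjamini-Hochberg adjustment, called at 0.05. The model held the kit, or for the difference between classes the library, as a block. The genotype model left 1 residual degree of freedom per gene. Its fit gave full weight to the spread shared by all genes (infinite prior degrees of freedom, common dispersion 0.0765). Replicate numbers coincide with kits in the labels and so pair the libraries. Across 1449 genes the libraries of a kit deviated from their group means with a correlation of 0.267. The labels do not say how many animals gave the pooled tumors of a library, or whether the replicates of a group were separate mice. The p-values thus measure a spread between these libraries, which may be in part technical. In the genotype test it was the spread shared by all genes, so a gene's own spread between libraries did not enter its p-value.

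Tested on simulated counts with 200 genes changed by a log2 size of 1.5 at a dispersion of 0.05, the genotype test recovered 110 with 6 false calls (1308 genes run) and made 0 calls when none was changed. The test of the difference between classes recovered 3 with 0 false calls (2908 genes run), so it can miss changes of that size. The simulated dispersion lay below that fitted to the data (0.0765 with the kit block and 0.132 without), so these counts may not hold for the data. Shares were compared by exact permutation tests. Clusters were made with scanpy 1.11.5 (1000 variable genes, ComBat on the kit, 15 principal components, 15 neighbours, Leiden resolution 0.5). A leading gene was detected in at least 10% of a cluster, and the 50 with the highest fold were kept.

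Named genes are the rule genes, Lef1, Xist and Y-linked genes, the 10 largest rises and falls among called genes of each test with 1 direction across kits and 20 CPM or more, 15 and 10 genes of the class contrast, and the 4 most abundant of each list. Other genes were chosen after their values were seen. Alternatives were floors of 500 and 2000 UMIs, a mitochondrial limit of 10%, an epithelial limit of 0.1%, 3 of the 5 genes, 1 C1q UMI, Scrublet, thinning, no block, DESeq2 1.42.0, no TMM, no filter, the mast-gene cells left out and each library left out. Symbols such as Itgam, Clec7a and Cebpd were not analysed here.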

Additional observations from a re-analysis of the deposited data

Results flagged for a closer look

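For 10 genes there was a genotype change that differed between C1q-negative and C1q-positive cells by the interaction term of edgeR. The log2 differences of the change, C1q-negative minus C1q-positive, were 3.87 for Cxcl2, 1.92 for Il1b, 4.73 for Ccl24, 2.54 for Ifitm1, 3.03 for Thbs1, 3.35 for Ccl3, 2.65 for Il1rn, -5.25 for Apol7c, -9.40 for Hba-a2 and -9.09 for Hba-a1. Il1b helped to choose the cells, so its value is a description.

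In 3 called genes the kit pairs had opposite signs, with log2 changes of -0.57 (kit 2) and 2.93 (kit 3) for S100a9, -0.87 and 3.48 for S100a8, and -0.13 and 3.36 for AA467197. The share of C1q-negative cells among all cells differed by -0.188 percentage points in the kit 2 pair and 0.191 in the kit 3 pair. The share of cells with Csf3r and S100a8 or S100a9 differed by -3.70 and 17.4 points. The differences between kit pairs were not tested, as each pair holds 1 library per group.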

How the results depend on the processing

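In C1q-negative cells 52 genes were called. The total called, whether or not among the 52, was 5 with DESeq2, 0 with no replicate block (94 at an unadjusted p under 0.05), 8 with cells of at least 2000 UMIs, 21 with a mitochondrial share limited to 10%, 13 with 1 C1q UMI allowed, 0 with at least 3 of the 5 genes and 0 with thinned cells, and 18 to 49 with each library left out (14 to 29 of them among the 52). The cause of these losses was not tested, except that the last 2 settings tested fewer genes. With no expression filter 43 were called, 27 higher and 16 lower. Without the member with mast cell genes, an alternative chosen after seeing the data like the floor of 500 UMIs, 53 were called. For the difference between classes, with 10 calls, 0 were called with no replicate block, 2 with thinned cells, 0 with at least 3 of the 5 genes, 18 with 1 C1q UMI allowed, 19 at a floor of 2000 UMIs, 39 with no filter, 19 without the mast-gene cells and 11 to 43 with each library left out. Of the listed genes, rule genes included, 27 were called, 0 with no replicate block, 0 with thinned cells and 10 to 22 with each library left out (10 without ApcMin replicate 2, 11 without VApcMinL replicate 2).

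The difference in the share of all cells, 0.00136 points and the same within kit pairs (replicate block), turned to -0.0257 with 1 C1q UMI allowed, -0.0314 at an epithelial limit of 0.1%, -0.0805 with cells of at least 2000 UMIs and -0.00319 with a mitochondrial share limited to 10%, and ranged from -0.318 to 0.321 with each library left out. The share among gated myeloid cells kept the direction of its mean difference in all settings run (3.59 to 14 points; 4.30 to 9.22 with each library left out; 6.76 within kit pairs, replicate block, p = 0.5, exact sign-flip test). The difference in the share of cells with Csf3r and S100a8 or S100a9 (6.84 points, replicate block, p = 1, exact sign-flip test) ranged from -1.85 without VApcMinL replicate 2 to 15.5 without VApcMinL replicate 1, and was 0 with cells of at least 2000 UMIs. Apol7c's difference between classes was 1.14 with at least 3 of the 5 genes, its only reversal. Of 367 values of named genes under other settings, 239 kept their call, 127 kept only their direction and 1 reversed.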
